A study of Tursiops truncatus with 17 samples.

Results

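Neuropeptide genes of the cerebral cortex, 10 of the 21265 genes in the files, were followed across the cortex of 17 bottlenose dolphins (Tursiops truncatus). They were found by gene symbol, each symbol matched 1 row, and all 10 passed the filter on low values. Of these, 6 are treated as interneuron peptides (SST, NPY, VIP, TAC1, TAC3 and CRH), because in the cortex of studied mammals they mark inhibitory neurons. The other 4 are the opioid precursors PENK and PDYN, together with CCK and ADCYAP1, which excitatory neurons of the cortex also make.

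The samples were frozen archived necropsy tissue of dolphins labelled wild type, with 1 messenger RNA library each. There were 9 dolphins collected in a bloom season and 8 collected in a non-bloom season, each numbered inside its season by deposition order. The labels used here give no sex, age, date, cause of death or sequencing batch, so season and any such batch cannot be told apart. The question here is how peptide transcripts differ between the seasons.

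Neuropeptides are cut from larger precursor proteins by prohormone convertases, stored in dense-core granules and released to act on G protein-coupled receptors. In the mammalian cortex the peptides divide inhibitory neurons into classes. SST, often together with NPY, is found in cells that contact distal dendrites, and VIP in cells that mostly contact other interneurons. Their transcripts are abundant in each cell, so a peptide gene can be read in whole tissue although its cells are few. In whole tissue, fewer cells of a type and less RNA per cell cannot be told apart.

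Values are the deposited normalised values, read counts divided by a library size that was rescaled with TMM (trimmed mean of M values), and are called normalised values below. They are not divided by transcript length, so levels are compared between dolphins and not between genes. Log2 changes are bloom over non-bloom on the scale log2(value + 1), which understates the change of genes with low values. Adjusted p-values are from limma with Benjamini-Hochberg adjustment over all 13548 genes tested, and an adjusted p under 0.05 counts as passing.

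Recovered totals were 7680050 to 12572653 reads in the bloom libraries and 12346713 to 15635292 reads in the non-bloom libraries. Transcripts of the mitochondrial genome took 1.47% to 77.2% of the reads in the bloom libraries and 9.68% to 22.1% in the non-bloom libraries. Bloom 9, bloom 5 and bloom 6 had the highest shares, 77.2%, 57.0% and 33.5%, and the fewest reads left for nuclear genes, 1753299, 4039857 and 6719605. The peptide results are therefore given with and without these 3 libraries. Excitatory markers of the cortex were present, none of the 12 being at 0 in any library, with a summed normalised value of 941 to 4967 in bloom and 3737 to 6015 in non-bloom libraries.

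In the bloom season 1 of the 10 peptide genes passed the test, TAC1, which was lower. Among all genes tested 4.69% passed as lower, 4.47% as higher, and 9.16% in either direction. TAC1 encodes the precursor of substance P and neurokinin A, tachykinins that excite neurons. Its normalised value was between 1.39 and 29.2 with a median of 9.83 in the 9 bloom dolphins, and between 16.9 and 51.5 with a median of 28.3 in the 8 non-bloom dolphins. The groups overlapped, but 6 of 9 bloom dolphins were below the lowest non-bloom dolphin and 4 of 8 non-bloom dolphins were above the highest bloom dolphin. The mean was 13.1 ± 9.53 (SD, n = 9) in bloom and 30.5 ± 12.3 (SD, n = 8) in non-bloom dolphins, a log2 change of -1.45 (SE 0.43, limma adjusted p = 0.0455). The TAC1 value of bloom 5 rests on 7 reads, with a 95% exact Poisson interval of 0.560 to 2.87 normalised units that covers counting error only. Without bloom 5, 6 and 9 the bloom mean was 17.5 ± 8.34 (SD, n = 6), the log2 change was -0.81 (SE 0.29) and TAC1 did not pass (limma adjusted p = 0.126). The call also went when any 1 of 13 of the 17 libraries was left out, with an adjusted p of up to 0.0888, and edgeR gave an adjusted p of 0.0661. The gene is at scaffold_110194, from 338779 to 346797, in the files' coordinates.

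VIP encodes vasoactive intestinal peptide and marks interneurons that inhibit other interneurons. It was between 4.00 and 67.5 with a median of 44.7 in bloom dolphins, and between 46.8 and 129 with a median of 76.9 in non-bloom dolphins. All 9 bloom dolphins were below the non-bloom median, 6 of them were below the lowest non-bloom dolphin, and 6 of 8 non-bloom dolphins were above the highest bloom dolphin. The mean was 38.6 ± 21.4 (SD, n = 9) in bloom and 79.3 ± 27.4 (SD, n = 8) in non-bloom dolphins, with a log2 change of -1.27 (SE 0.42), which did not pass (limma adjusted p = 0.0566). The lowest values were those of bloom 9, bloom 5 and bloom 6, at 4.00, 16.9 and 17.4, and the first of these is 7 reads, with an exact Poisson interval of 1.61 to 8.24. Without these 3 libraries the bloom mean was 51.6 ± 10.5 (SD, n = 6) and the log2 change -0.56 (SE 0.21, limma adjusted p = 0.129). VIP lies on scaffold_83671, from 19065 to 24194.

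SST encodes somatostatin, an inhibitory peptide of dendrite-targeting interneurons. Its normalised value ran from 12.4 to 227 with a median of 36.03 in bloom dolphins, and from 35.9 to 259 with a median of 126 in non-bloom dolphins. Within each season it therefore spread widely, and the highest non-bloom dolphin had 7.22 times the value of the lowest. Of the bloom dolphins, 8 of 9 were below the non-bloom median, and bloom 8 was above all but 1 non-bloom dolphin. The mean was 68.0 ± 67.9 (SD, n = 9) in bloom and 132 ± 69.3 (SD, n = 8) in non-bloom dolphins, a log2 change of -1.26 (SE 0.48) that did not pass (limma adjusted p = 0.0800). Without bloom 5, 6 and 9 it was -0.79 (SE 0.46, limma adjusted p = 0.324). SST lies on scaffold_90667, from 12770 to 13971.

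NPY encodes neuropeptide Y, which is made in part of the SST cells and in neurogliaform cells. It was between 3.03 and 25.7 with a median of 6.25 in bloom dolphins, and between 6.17 and 23.9 with a median of 15.8 in non-bloom dolphins. The highest of all 17 values was that of bloom 8, and 8 of 9 bloom dolphins were below the non-bloom median. The log2 change was -0.79 (SE 0.32, limma adjusted p = 0.0949), and -0.73 (SE 0.34, adjusted p = 0.212) without bloom 5, 6 and 9. NPY lies on scaffold_98023, from 20463 to 26677.

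CRH encodes corticotropin-releasing hormone, the hypothalamic stress peptide, which cortical interneurons also make. It was between 0.848 and 9.27 with a median of 2.59 in bloom dolphins, and between 3.96 and 8.04 with a median of 6.25 in non-bloom dolphins. Of the bloom dolphins 6 of 9 were below every non-bloom dolphin, while bloom 4 and bloom 8, at 9.27 and 8.23, were above all of them. The coefficient of variation was 89.1% in bloom and 22.8% in non-bloom dolphins; this difference in spread was not tested. The log2 change was -0.88 (SE 0.32, limma adjusted p = 0.0711), and -0.56 (SE 0.31, adjusted p = 0.297) without bloom 5, 6 and 9. The annotated CRH model spans 582 bases on scaffold_89369, from 248051 to 248632, and bloom 9 had only 2 CRH reads (exact Poisson interval 0.138 to 4.13).

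TAC3, the precursor of neurokinin B, had few reads in every library, from 6 to 35. It was between 0.792 and 6.29 with a median of 1.19 in bloom dolphins, and between 0.528 and 2.46 with a median of 1.37 in non-bloom dolphins. The groups overlapped throughout, apart from bloom 9, whose value of 6.29 is 11 reads (exact Poisson interval 3.14 to 11.2). The log2 change was 0.11 (SE 0.25, limma adjusted p = 0.756) with all libraries and -0.08 (limma adjusted p = 0.749) without bloom 9 and -0.07 (adjusted p = 0.854) without bloom 5, 6 and 9, so 1 library decided its sign. TAC3 lies on GeneScaffold_2495, from 26038 to 29632.

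**Figure D1:**
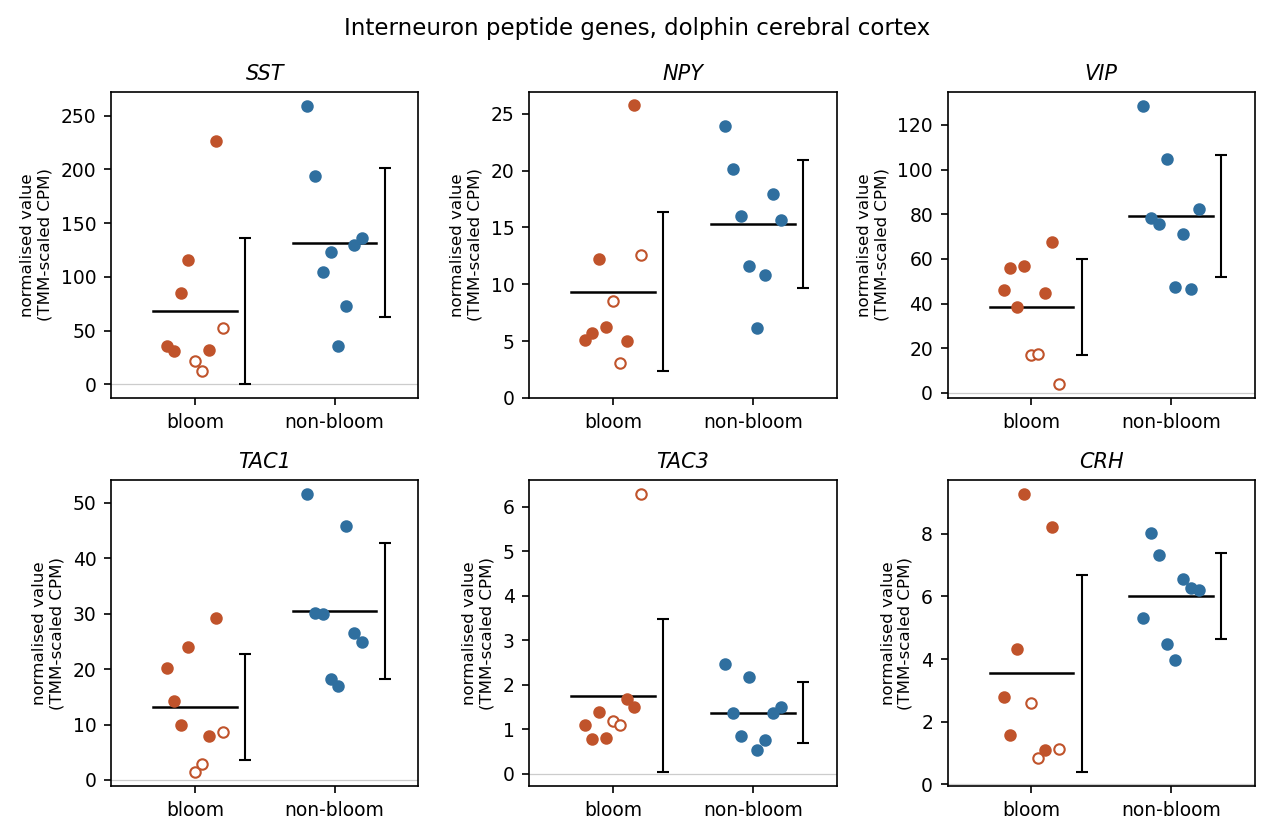
Normalised value (TMM-scaled read counts) of the 6 interneuron peptide genes in each dolphin, 9 bloom on the left and 8 non-bloom on the right of each panel. Points are libraries, open points are bloom 5, 6 and 9, horizontal lines are means and bars are ± SD. The 9 bloom dolphins are all below the non-bloom median of VIP, and bloom 8 reaches 227 for SST and 25.7 for NPY.

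Among the other 4 peptides none passed. ADCYAP1 encodes PACAP, a peptide related to VIP that excitatory neurons make and that raises cyclic AMP in its target cells. It was between 2.51 and 24.7 with a median of 6.404 in bloom dolphins, and between 6.17 and 27.2 with a median of 16.0 in non-bloom dolphins. The mean was 8.67 ± 7.02 (SD, n = 9) in bloom and 17.3 ± 8.13 (SD, n = 8) in non-bloom dolphins, a log2 change of -1.05 (SE 0.37, limma adjusted p = 0.0664), and -0.77 (SE 0.39, adjusted p = 0.255) without bloom 5, 6 and 9. Again 8 of 9 bloom dolphins were below the non-bloom median, the exception being bloom 8. ADCYAP1 lies on scaffold_115850, from 62673 to 66907.

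PDYN encodes the precursor of the dynorphins, which act mainly on the kappa opioid receptor. It was between 0 and 7.44 with a median of 2.55 in bloom dolphins, and between 2.75 and 7.02 with a median of 3.88 in non-bloom dolphins. No PDYN read was found in bloom 6 or bloom 9, where the upper limit of the 95% exact Poisson interval is 0.447 and 2.11 normalised units. The limit of bloom 6 is below the lowest non-bloom value, and so is that of bloom 9. The log2 change was -0.84 (SE 0.36, limma adjusted p = 0.110). Without bloom 5, 6 and 9 the bloom mean was 3.56 ± 2.07 (SD, n = 6), against 4.17 ± 1.46 (SD, n = 8) in non-bloom dolphins, and the log2 change was -0.24 (SE 0.25, limma adjusted p = 0.581). PDYN lies on scaffold_112107, from 86815 to 88944.

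PENK encodes the precursor of the enkephalins, which act on delta and mu opioid receptors. It was between 1.71 and 15.4 with a median of 4.81 in bloom dolphins, and between 3.64 and 21.7 with a median of 8.12 in non-bloom dolphins. The groups overlapped over most of their range, and the log2 change was -0.40 (SE 0.34, limma adjusted p = 0.404), and -0.24 (SE 0.33, adjusted p = 0.712) without bloom 5, 6 and 9. Because PENK, PDYN and TAC1 are also abundant in the striatum, 7 striatal markers were read beside them, and none was at 0 in any library. Their summed normalised value was 155 to 718 in bloom and 124 to 223 in non-bloom libraries. ADORA2A, an adenosine receptor of striatal enkephalin cells, rose to 32.2 ± 37.9 (SD, n = 9) in bloom, against 5.19 ± 3.20 (SD, n = 8) in non-bloom dolphins (limma adjusted p = 0.0423). PDE10A, a phosphodiesterase of striatal neurons, fell to 11.5 ± 7.35 (SD, n = 9) in bloom, against 25.8 ± 9.73 (SD, n = 8) in non-bloom dolphins (limma adjusted p = 0.0341). Neither passed without bloom 5, 6 and 9 (limma), and their part in the peptide values was not tested. PENK lies on scaffold_96029, from 33970 to 37395.

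CCK encodes cholecystokinin, made by a class of interneurons and by many pyramidal cells. It was between 222 and 693 with a median of 334 in bloom dolphins, and between 205 and 934 with a median of 478 in non-bloom dolphins. No bloom dolphin was below the lowest non-bloom dolphin. The mean was 398 ± 168 (SD, n = 9) in bloom and 506 ± 239 (SD, n = 8) in non-bloom dolphins, a log2 change of -0.30 (SE 0.29, limma adjusted p = 0.457), and -0.21 (SE 0.33, adjusted p = 0.739) without bloom 5, 6 and 9. With 672 to 11748 reads per library CCK had the most reads of the 10 genes, so counting error is small beside the spread between dolphins. CCK lies on GeneScaffold_2531, from 795026 to 798668.

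**Figure D2:**
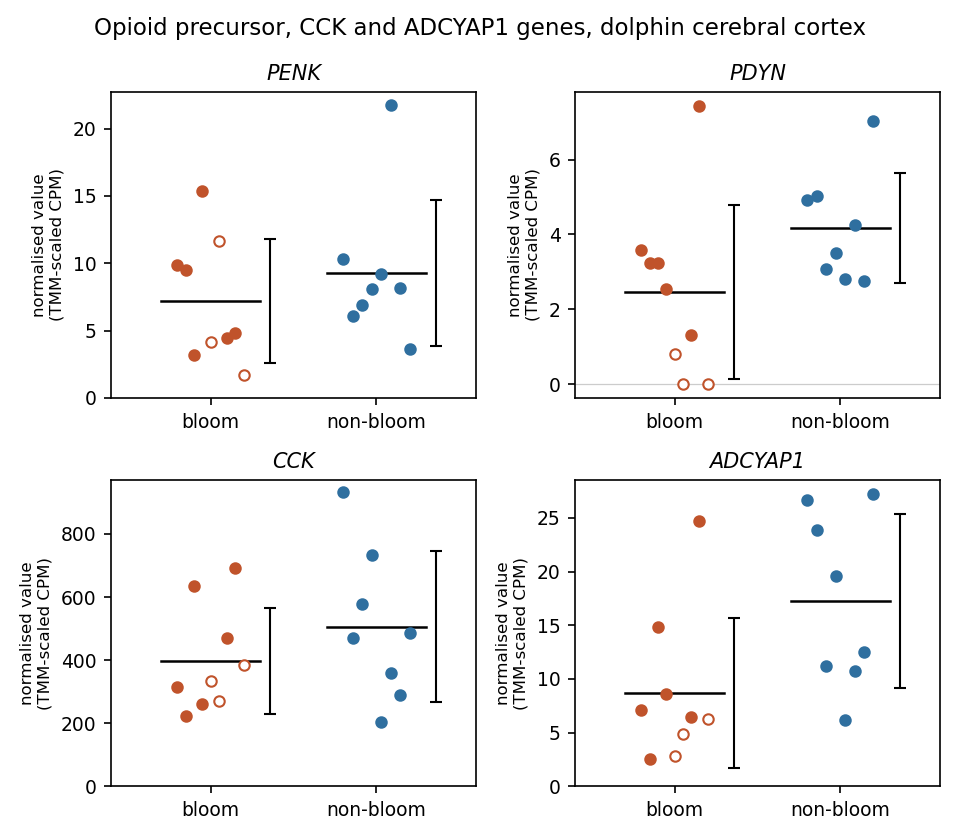
Normalised value (TMM-scaled read counts) of PENK, PDYN, CCK and ADCYAP1 in each dolphin, 9 bloom on the left and 8 non-bloom on the right of each panel. Points are libraries, open points are bloom 5, 6 and 9, lines are means and bars are ± SD. CCK runs from 222 to 693 in bloom and from 205 to 934 in non-bloom dolphins, and PDYN is at 0 in bloom 6 and bloom 9.

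Set side by side, 9 of the 10 peptide genes had a negative log2 change and TAC3 a positive one, against 50.3% negative among all genes tested. The median log2 change was -0.86 over the 10 genes, -1.07 over the 6 interneuron peptides and -0.62 over the other 4, beside -0.0034 over all genes tested. At an unadjusted p under 0.05, 7 of the 10 were lower, where 19.1% of all genes were (limma). In 6 of the 10 (SST, NPY, VIP, TAC1, PDYN and ADCYAP1) at least 8 of 9 bloom dolphins were below the non-bloom median, which held for 19.8% of all genes. No peptide gene had groups that did not overlap, and 0.657% of all genes did. Without bloom 5, 6 and 9 all 10 changes were negative, with 48.5% negative among all genes, the median was -0.56 beside 0.01 over all genes, and none passed. In that fit 0.659% of all genes passed as lower and 2.34% in either direction. At an unadjusted p under 0.05 it held 3 of the 10 (NPY, VIP and TAC1) and 22.6% of all genes (limma), so this count is near the background. In edgeR without these libraries, which called 1.73% of all genes, none passed. At an unadjusted p under 0.05 that fit held 2 of the 10 and 22.2% of all genes.

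The number that passed differed between tests. edgeR on the recovered reads called 0 of the 10. At an unadjusted p under 0.05 it held VIP, TAC1 and ADCYAP1, 3 of the 10, and 36.3% of all genes. It called 2.55% of all genes lower, 6.07% higher and 8.63% in either direction, so that 70.4% of its calls were higher, against 48.8% of those of limma. DESeq2 called VIP and TAC1, with 9.04% of all genes lower and 23.4% in either direction. limma-voom with quality weights called SST, VIP, TAC1 and CRH, with 16.5% of all genes lower and 31.2% in either direction. None of the 10 passed in limma with a pseudocount of 0.1, with no filter or without bloom 5 and 9, where 6.84%, 3.19% and 4.16% of all genes did. At an unadjusted p under 0.05 these fits held 7, 7 and 6 of the 10, and 34.7%, 29.3% and 29.2% of all genes. One library had a large part in this count. Without bloom 8, SST, NPY, VIP, TAC1, CRH, PDYN and ADCYAP1 passed by limma, 7 of the 10, while 11.4% of all genes passed as lower and 19.9% in either direction.

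**Figure D3:**
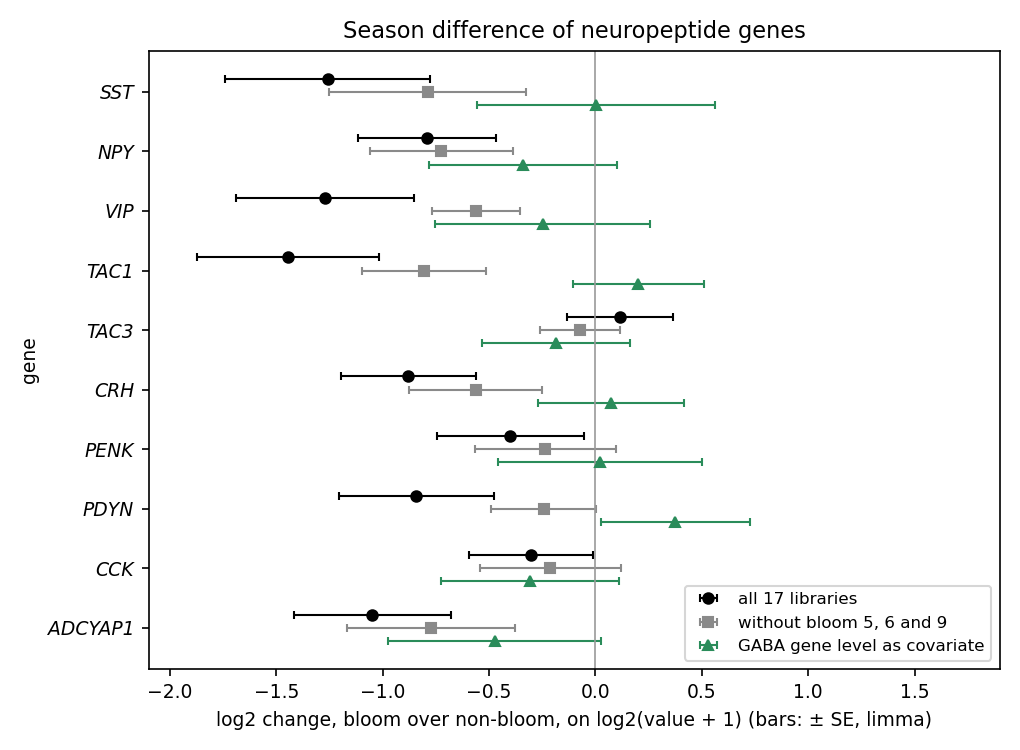
Log2 change (bloom over non-bloom, on log2(value + 1)) of the 10 peptide genes with bars of ± SE from limma, for all 17 libraries (black circles), without bloom 5, 6 and 9 (grey squares), and with the mean level of GAD1, GAD2 and SLC32A1 as a covariate (green triangles). With all libraries 9 of 10 changes are negative, and with the covariate the change of SST is 0.0020.

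Individual dolphins tended to be high or low in many peptides at once. Bloom 8 was the highest bloom dolphin in 7 of the 10 genes and was above the non-bloom median in 8 of them. Each of the other 8 bloom dolphins was below the non-bloom median in 8 to 10 of the genes. Non-bloom 1 was the highest of its group in 6 genes, and non-bloom 5 was the lowest of its group in 7. Bloom 8 also had the lowest mitochondrial share of the 17 libraries, 1.47%, and the part of that in its peptide values was not tested.

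**Figure D4:**
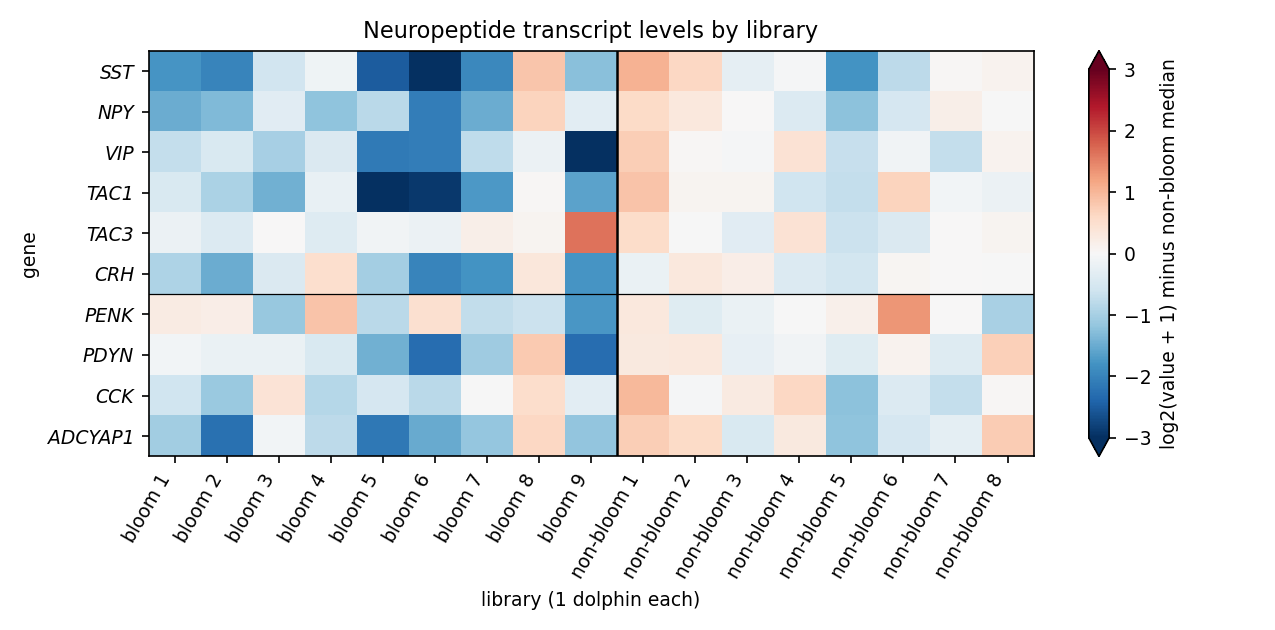
Log2(value + 1) of each peptide gene in each library, minus the median of the 8 non-bloom libraries, with bloom libraries left and non-bloom libraries right of the vertical line and the 6 interneuron peptides above the horizontal line. Blue is lower and red higher than the non-bloom median. Bloom 8 is above that median in 8 of 10 genes, and non-bloom 5 is below it in 9 of 10.

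As a description of how the genes varied together, log2 levels were centred within each season and Pearson's r was taken over the 17 libraries, which share their scaling and differ in depth. SST went with ADCYAP1 (r = 0.85), NPY (r = 0.83) and CRH (r = 0.75), and without bloom 5, 6 and 9 these were 0.87, 0.89 and 0.75 over 14 libraries. CCK went with ADCYAP1 (r = 0.76, and 0.78 over 14 libraries). VIP and PDYN had r = 0.82 over 17 libraries and 0.51 over 14. PENK had negative coefficients with SST, NPY, CCK, ADCYAP1 and TAC3, between -0.62 and -0.21. The ratio of SST to NPY had a geometric mean of 6.11 in bloom and 8.05 in non-bloom dolphins (two-sided exact permutation test over all 24310 splits, p = 0.224), and it was 8.10 in bloom without bloom 5, 6 and 9. The ratio of SST to VIP had a geometric mean of 1.56 in bloom and 1.52 in non-bloom dolphins (exact permutation p = 0.949). The CRH to SST ratio was 0.0535 in bloom and 0.0513 in non-bloom dolphins (exact permutation p = 0.872). Adjusted over these 3 ratios the smallest exact permutation p is 0.671.

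The genes whose pattern was most like each peptide's were named by the same coefficient, 3 per gene. For TAC1 they were NXPH1 (r = 0.96), which encodes a secreted neurexin ligand, CNTN5 (r = 0.94) and the granule gene SCG3 (r = 0.94). BDNF, which encodes brain-derived neurotrophic factor, was among the 3 for SST (r = 0.89) and was the closest to ADCYAP1 (r = 0.90). Over 14 libraries these stood at 0.92 for TAC1 with NXPH1, 0.86 for SST with BDNF and 0.91 for ADCYAP1 with BDNF. For VIP they were ALG13, FAM184A and CDH10, at 0.93 to 0.96 over 17 libraries and 0.65 to 0.70 over 14. For PDYN they were SIDT1, ASIC1 and LRP11, at 0.94 to 0.96 over 17 libraries and 0.82 to 0.88 over 14. For TAC3 they were TMIGD2, NPW and BOP1, at 0.92 to 0.93 over 17 libraries and 0.74 to 0.80 over 14. CRH was closest to EXOC3 (r = 0.84), PENK to an unnamed gene and then DFFA (r = 0.86), NPY to C2ORF61 (r = 0.91), and CCK to an unnamed gene and then SARNP (r = 0.91). BDNF was at 6.39 ± 5.56 (SD, n = 9) in bloom and 13.1 ± 6.24 (SD, n = 8) in non-bloom dolphins, with a log2 change of -1.06 (SE 0.41) that did not pass (limma adjusted p = 0.0839). It is 1 of 8 activity-regulated genes listed, of which 7 were tested and none passed (limma, edgeR), 4 of them with an unadjusted p under 0.05 (limma), a threshold that 35.4% of all genes tested met.

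Several markers of inhibitory neurons were lower as well, and most pan-neuronal and excitatory markers had negative log2 changes too, as given below. The GABA-synthesizing enzymes GAD1 and GAD2 and the vesicular GABA transporter SLC32A1, all 3 of which passed as lower with all libraries, had a mean normalised value of 1.66 to 50.9 in bloom and 22.5 to 166 in non-bloom libraries. Of 28 interneuron markers 26 were in the files and 24 were tested. Of these 6 fell, DLX1, KIT, LHX6 and the 3 GABA genes, none rose, and the median log2 change was -0.86, beside 4.69% called lower and a median of -0.0034 over all genes. At an unadjusted p under 0.05 stood 14 of the 24 and 35.4% of all genes (limma). edgeR called 4 lower, LHX6 and the 3 GABA genes. Without bloom 5, 6 and 9 the list's median was -0.48 and 2 passed, SLC32A1 and LHX6 (limma adjusted p = 0.0482 and 0.0408); GAD1 and GAD2 had adjusted p-values of 0.0548 and 0.0540. Leaving out 1 library at a time ended the call of DLX1 in 14 of 17 cases, KIT in 11, LHX6 in 10, SLC32A1 in 8, GAD1 in 6 and GAD2 in 3. LHX6, a transcription factor of the lineage that gives rise to SST cells, fell to 2.64 ± 2.11 (SD, n = 9) in bloom, against 6.58 ± 2.77 (SD, n = 8) in non-bloom dolphins (limma adjusted p = 0.0397). KIT, a receptor tyrosine kinase, fell to 3.64 ± 3.25 in bloom, against 9.71 ± 4.11 in non-bloom dolphins. DLX1, a homeobox gene of interneurons, fell to 3.82 ± 3.01 in bloom, against 7.75 ± 1.505 in non-bloom dolphins. PVALB, the calcium-binding protein of fast-spiking interneurons, was at 19.6 ± 19.3 (SD, n = 9) in bloom and 18.6 ± 16.7 (SD, n = 8) in non-bloom dolphins (limma adjusted p = 0.971).

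With the mean log2 level of GAD1, GAD2 and SLC32A1 as a covariate, the log2 change was 0.0020 (SE 0.56) for SST, 0.20 (SE 0.31) for TAC1 and -0.25 (SE 0.51) for VIP, and 0 of 13548 genes passed (limma), with 412 at an unadjusted p under 0.05, none of them a peptide gene. NPY, CCK and ADCYAP1 had changes of -0.34 (SE 0.44), -0.31 (SE 0.42) and -0.47 (SE 0.50). Season and the level of these genes went together, and each is estimated here in the presence of the other. Centred within season, the coefficient with this GABA level was 0.88 for TAC1, 0.78 for PDYN, 0.70 for CRH and 0.60 for SST over 17 libraries, and 0.79, 0.48, 0.62 and 0.33 over 14. For VIP, ADCYAP1, NPY and PENK it was 0.56, 0.36, 0.33 and 0.28 over 17 libraries, and 0.05, 0.11, 0.28 and 0.45 over 14. For CCK it was -0.0037 over 17 libraries and -0.26 over 14, and for TAC3 -0.29 and -0.38. Other library measures went with some peptides too. TAC1 had 0.82 with the pan-neuronal marker level (0.39 over 14). With the log2 ratio of mitochondrial to other reads PDYN, VIP and CRH had -0.81, -0.78 and -0.70 (-0.56, -0.07 and -0.73 over 14). The log2 ratio of each peptide to the mean of the 3 GABA genes was higher in bloom dolphins for all 10, by 0.89 for TAC1 to 2.45 for TAC3. For 8 of the 10 it passed an exact permutation test adjusted over all genes, as did 99.2% of all genes tested, so this count is no result about the peptides. SST and VIP were the 2 that did not pass, with differences of 1.08 and 1.06 (exact permutation test, adjusted p = 0.0546 and 0.0644).

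The receptors form the receiving side of these signals. Of 22 listed receptor genes and CRHBP 18 were in the files and 16 were tested. Of these 3 fell and none rose, while 4.69% of all genes passed as lower. At an unadjusted p under 0.05 stood 5 of the 16 and 35.4% of all genes (limma). The median log2 change was -0.56 beside -0.0034 over all genes. Without bloom 5, 6 and 9 it was -0.05 beside 0.01 over all genes, so the lower median of this list depended on these libraries. CRHBP, a secreted protein that binds CRH, was between 0.995 and 27.4 with a median of 7.46 in bloom dolphins, and between 10.4 and 41.3 with a median of 23.0 in non-bloom dolphins. Its log2 change was -1.69 (SE 0.45, limma adjusted p = 0.0365). TACR1, the receptor of substance P, had a median of 0.437 in bloom and 1.61 in non-bloom dolphins and a log2 change of -0.80 (SE 0.21, limma adjusted p = 0.0369). TACR1 had at most 43 reads in a library and was at 0 in at least 1 bloom library. In the bloom libraries the 3-read floor was 0.183 to 1.71 normalised units, and the bloom median of TACR1 is inside that range. Only bloom 5 and bloom 9 had a floor above that median, at 0.597 and 1.71. In the non-bloom libraries the floor was at most 0.238. OPRD1, the delta opioid receptor, had a median of 1.96 in bloom and 5.22 in non-bloom dolphins and a log2 change of -1.07 (SE 0.32, limma adjusted p = 0.0458). Leaving out 1 library at a time ended these 3 calls in 10, 10 and 13 of 17 cases, edgeR called none of them, and none passed without bloom 5, 6 and 9. For ADCYAP1R1, the PACAP receptor, the mean was 36.4 ± 13.4 (SD, n = 9) in bloom and 54.8 ± 23.2 (SD, n = 8) in non-bloom dolphins, and for SSTR2, a somatostatin receptor, it was 9.81 ± 8.63 in bloom and 16.6 ± 6.96 in non-bloom dolphins; neither passed (limma adjusted p = 0.168 and 0.120).

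Of 18 listed genes that cut, amidate and store peptides 17 were tested. Of these 3 fell, none rose, 15 had a negative log2 change, and the median log2 change was -0.77. Among all genes tested 4.69% passed as lower and 50.3% had a negative change, with a median of -0.0034. At an unadjusted p under 0.05 stood 14 of the 17 and 35.4% of all genes (limma). Without bloom 5, 6 and 9 the list's median was -0.41 beside 0.01 over all genes. PCSK1, a prohormone convertase, was between 10.5 and 102 with a median of 35.1 in bloom dolphins, and between 51.1 and 124 with a median of 92.5 in non-bloom dolphins (log2 change -1.33, SE 0.35, limma adjusted p = 0.0365). CADPS, which primes dense-core granules for release, fell to 234 ± 87.0 (SD, n = 9) in bloom, against 363 ± 78.1 (SD, n = 8) in non-bloom dolphins. SCG3, a granin-binding protein of granules, fell to 136 ± 56.2 (SD, n = 9) in bloom, against 210 ± 32.0 (SD, n = 8) in non-bloom dolphins. The 2 with positive changes did not pass: CPE, the carboxypeptidase that trims cut peptides, and PCSK1N, an inhibitor of PCSK1 (limma adjusted p = 0.495 and 0.189). Leaving out 1 library at a time ended the calls of PCSK1, CADPS and SCG3 in 9, 13 and 14 of 17 cases, edgeR called none of the list, and none passed without bloom 5, 6 and 9.

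Of 10 genes for enzymes that break down peptides none passed by limma or edgeR, and the median log2 change was -0.15. The smallest p-values were those of the aminopeptidase ANPEP, the prolyl peptidase PREP, the carboxypeptidase CPQ and the neprilysin gene MME. Their log2 changes were 0.74, -0.53, 0.43 and -0.32. An unadjusted p under 0.05 was found for 2 of the 10, beside 35.4% of all genes (limma). Of 19 further neuropeptide genes 16 were in the files and 12 were tested. None passed by limma, 4 of 12 had an unadjusted p under 0.05, beside 35.4% of all genes, and the median was 0.07. UCN, which encodes the CRH relative urocortin, was at 4.801 ± 4.84 (SD, n = 9) in bloom and 1.57 ± 0.481 (SD, n = 8) in non-bloom dolphins (limma adjusted p = 0.0533). edgeR called UCN higher (adjusted p = 0.0409), and it did not pass without bloom 5, 6 and 9 (limma adjusted p = 0.101). TRH, PNOC and CARTPT had log2 changes of -1.01, -0.83 and -0.66.

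**Figure D5:**
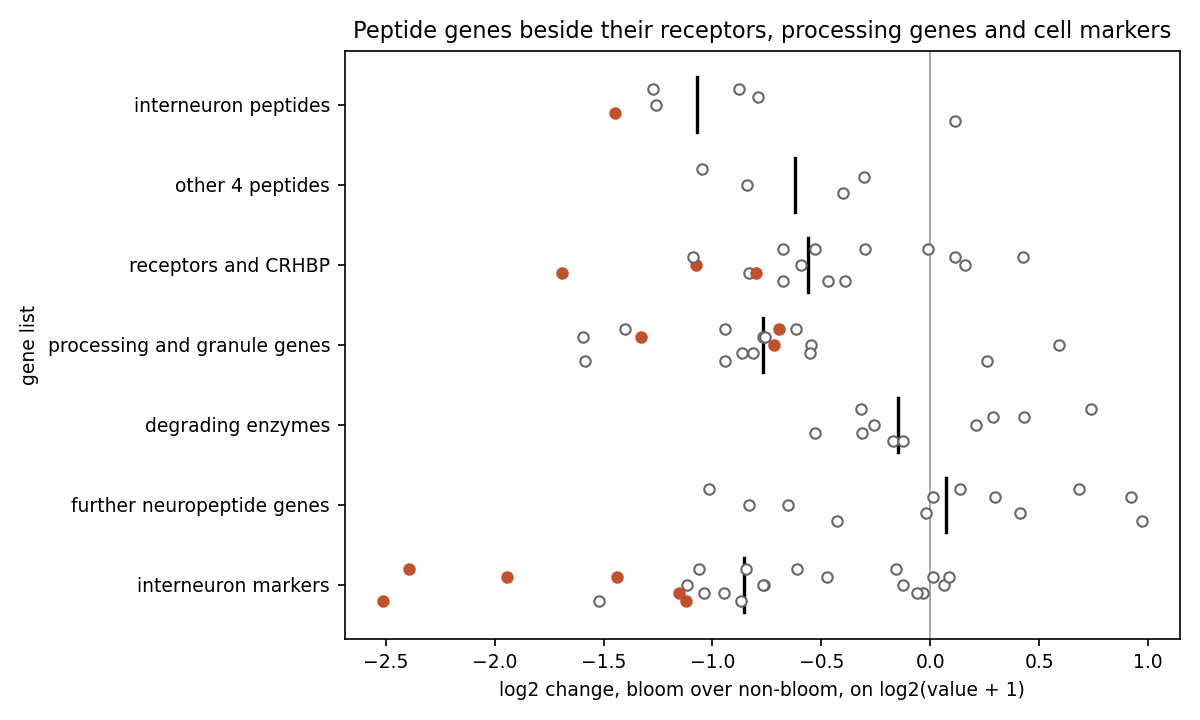
Log2 change (bloom over non-bloom, on log2(value + 1)) of each tested gene, by list. Points are genes, filled where the limma adjusted p is under 0.05, and vertical bars are list medians, -1.07 for the interneuron peptides, -0.56 for receptors and CRHBP, -0.77 for processing and granule genes and 0.07 for further neuropeptide genes. All 17 libraries are included. Without bloom 5, 6 and 9 the median of receptors and CRHBP was -0.05.

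Markers of other cell types were read beside the peptides, and their part in the peptide values was not tested. For the counts at an unadjusted p under 0.05 given here, the share over all genes tested was 35.4% (limma). Pan-neuronal markers, 11 of 12 in the files, had a summed normalised value of 2326 to 9757 in bloom and 7711 to 12907 in non-bloom libraries, with SYT1, a synaptic vesicle protein, lower. Among the excitatory markers BCL11B, a transcription factor of projection neurons, fell (limma adjusted p = 0.0468). Of the 11 pan-neuronal markers 10 had a negative log2 change (median -0.67), as did all 12 excitatory markers (median -0.75). Without bloom 5, 6 and 9 these medians were -0.33 and -0.21. Astrocyte markers, 11 of 12, summed to 581 to 10857 in bloom and 534 to 2645 in non-bloom libraries, with none called by limma, 6 at an unadjusted p under 0.05 and 3 called higher by edgeR. Oligodendrocyte markers, 11 of 12, summed to 4523 to 19259 in bloom and 1721 to 8187 in non-bloom libraries, with ERMN and MOG, myelin-cell genes, higher; edgeR called ERMN and not MOG (adjusted p = 0.0568). None of these markers was at 0 in any library. Endothelial markers (11 of 12, 0 called by limma, 1 at an unadjusted p under 0.05 and 1 called higher by edgeR) summed to 186 to 3023 in bloom and 348 to 962 in non-bloom libraries, and pericyte and fibroblast markers (10 of 10, with KCNJ8 higher) to 50.1 to 212 in bloom and 20.2 to 219 in non-bloom libraries. Microglia markers (9 of 12, 0 of 7 tested called by limma, 3 at an unadjusted p under 0.05 and 2 called lower by edgeR) summed to 4.90 to 37.1 in bloom and 4.97 to 300.4 in non-bloom libraries, with 7 of the 9 at 0 in at least 1 bloom library. Without bloom 5, 6 and 9 SYT1 still passed, and BCL11B, ERMN, MOG and KCNJ8 did not (limma adjusted p = 0.118, 0.0537, 0.0565 and 0.102). When mean log2 pan-neuronal marker level was a covariate, the log2 changes were -0.60 (SE 0.48) for SST, -0.92 (SE 0.47) for VIP and -0.56 (SE 0.30) for TAC1, none of the 10 passed, none had an unadjusted p under 0.05, and 0.0738% of all genes passed (limma).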

How the data were processed

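Cortical RNA of 17 dolphins (9 bloom, 8 non-bloom by the treatment label) was sequenced. Per the submitters' processing notes, Trim Galore 0.6.1 and STAR 2.5.2a were used; for the counter, build and gene models the sources used here give nothing. The authors deposited a normalised signal per gene. Dividing it by what 1 read is worth gave whole reads (100% of nonzero values within 0.01), and that worth equalled the TMM-scaled one recomputed from the reads. The floor, 3 reads, came to 0.158 to 1.71 normalised units.

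Low genes were filtered with filterByExpr (edgeR; season groups, at least 10 reads, total 15). limma-trend with season as the only term was run on log2(value + 1), and checked on simulated data. The simulated libraries had a common spread and, apart from the genes changed, the same expected levels. The check therefore does not cover unequal mitochondrial shares or unequal spread between the seasons. edgeR, DESeq2 and limma-voom on recovered reads were alternatives, with other scalings, filters, covariates and left-out libraries; leaving out bloom 5 and 9 and edgeR without bloom 5, 6 and 9 were chosen after seeing the data. Exact permutation p-values of the ratios to GABA genes were adjusted over all genes, in place of the planned adjustment over the peptides. The design named the 10 peptides, called genes of each accompanying list (or its 4 with the smallest p), and the 3 genes most like each peptide; PVALB, SSTR2, ADCYAP1R1, CPE and PCSK1N were added after their values were seen. A called marker gene is not reported here. The members and lists were chosen with earlier results of these data known. Each source name is a separate dolphin. The software was DESeq2 1.42.0, edgeR 4.0.16 and limma 3.58.1 in R 4.3.3.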

Additional observations from a re-analysis of the deposited data

Results flagged for a closer look

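In 5 of 20 sets of values (10 genes in 2 groups) 1 dolphin stood far from the others of its group by Dixon's test. With independent, normally distributed values chance alone flags about 1 of 20 groups. The 10 genes come from the same libraries and several vary together, so the 5 flags cannot be set against that rate. Bloom 8 was far above the other bloom dolphins for SST, at 227, for NPY, at 25.7, and for PDYN, at 7.44. Bloom 9 was far above them for TAC3, at 6.29, a value of 11 reads. Non-bloom 6 was far above the other non-bloom dolphins for PENK, at 21.7. The 3 flags of bloom 8 come from 1 library and are not independent of each other.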

How the results depend on the processing

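The main fit called 1241 genes and 1 peptide gene. DESeq2 called 3170 and 2, limma-voom with quality weights 4223 and 4, and the fit with no filter 560 and 0. With the pan-neuronal covariate 10 genes and 0 peptides were called, with the GABA covariate 0 and 0, without bloom 5, 6 and 9 320 and 0, without bloom 5 and 9 566 and 0, and by edgeR without bloom 5, 6 and 9 237 and 0. edgeR with all libraries and a pseudocount of 0.1 each called 0 peptides. Leaving out 1 library gave 61 to 2895 genes and 0 to 7 peptides. With the GABA covariate the sign turned for SST (0.0020), TAC1 (0.20), CRH (0.073), PENK (0.019), PDYN (0.38) and TAC3 (-0.18). TAC3 also turned without bloom 5, 6 and 9 (-0.072), without bloom 5 and 9 (-0.081), without bloom 9 (-0.079) and by edgeR without bloom 5, 6 and 9 (-0.19). The number of peptides whose ratio to the GABA genes passed was 8, 5 without bloom 5, 6 and 9, and 7 to 10 with 1 library left out. With all libraries 99.2% of all genes passed this ratio test too. The share of all genes is not given for the other settings, so these counts are no result about the peptides. Apart from the turns of sign named above, the log2 change of each peptide kept its sign in all settings tried. The causes were not tested. No paired analysis was possible because the labels give each dolphin its own number and no pairing between the groups. TAC3, CRH and PDYN had at most 13 reads each in bloom 5, 6 and 9, which limits the precision of those values.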
